A study of Mus musculus with 28 samples.

Results

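Collagen genes are described here across mouse cells between embryonic stem cells and early meiosis. They were taken as every gene symbol of the form Col, a number, a and a number, which gave 44 of the 53564 symbols of the deposited expression table. A collagen protein is built from 3 chains that wind into a triple helix, and each gene encodes 1 kind of chain. Fibrillar collagens form the tensile fibres of connective tissue, the network collagens of type IV form the sheet of basement membranes, and the beaded filaments of type VI lie at the border between cells and matrix. Fibril-associated collagens, known as FACITs, coat fibres, multiplexins carry sugar chains and sit in basement membranes, and transmembrane collagens span the cell surface. Primordial germ cells (PGCs), from which eggs or sperm later form, migrate through such matrix to the gonad, where somatic cells lay down a basement membrane around them.

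Every cell came from the strain C57BL6, and 16 libraries in 8 groups of 2 are used. Stem cells were wild type with long telomeres (LT), knocked out for Terc at generation 4 with short telomeres (ST), or rescued for Terc and telomere length (RT), and Terc is the RNA template of telomerase. Stem cells became epiblast-like cells within 2 days in bFGF, activin A and KSR, and 1 further day with BMP4, SCF, EGF and LIF gave day-1 embryoid bodies (1dEB). Cells induced in this way for 4 days, or PGCs sorted from embryos at E10.5 with antibodies to CD61 and SSEA1 (E10.5PGC), were aggregated with female gonadal somatic cells of E12.5 embryos that carried Actin-GFP. After 1 day with 3 µM retinoic acid in medium with serum, vitamin C and a ROCK inhibitor, cells negative for GFP were sorted as meiocyte-like cells, named LT-, ST- or RT-1dMeioLC, or PGC-1dMeioLC when they came from PGCs. All meiocyte-like libraries therefore share the somatic partners, retinoic acid and a sort by the absence of GFP alone, and no library of the somatic partners was analysed here. The labels do not say how many stem cell lines or clones stood behind a genotype, so the stem cell line and its telomere state cannot be told apart. Nor do they say how many embryos were pooled or whether the 2 libraries of a group came from separate cultures, so p-values measure the spread between these libraries, which may be technical.

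Levels are TPM, a measure of transcript abundance per unit of transcript length, rescaled so that nuclear protein-coding genes add up to the same total of 1000000 in every library; they are called scaled TPM. Before the rescaling protein-coding genes held 27.2% and 29.2% of the deposited TPM in RT-1dEB, 38.7% to 44.5% in the other 1dEB libraries and 54.4% to 61.3% elsewhere. Mitochondrial rRNA held 13.1% and 12.4% of the deposited TPM in RT-1dEB, 3.78% to 5.41% in the other 1dEB libraries and 0.39% to 2.04% elsewhere, and its part in the RT-1dEB comparisons was not tested. Read depth is unknown, so a value of 0 means only that a gene is listed at 0. Pearson's r across genes between the paired libraries of each group was 0.956 to 0.981. Terc itself was listed at 0 in the 4 ST libraries, stood at 0.921 to 5.39 deposited TPM in the LT libraries and at 0.699 to 3.35 in the RT libraries, and was also listed at 0 in both PGC-1dMeioLC libraries, whose labels name no knockout. Differences are given on the scale log2(scaled TPM + 1), which understates the change of low genes, with limma's standard error (SE) and a Benjamini-Hochberg adjusted p over 21935 genes; a gene is called at an adjusted p under 0.05.

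The upstream sequences of 3 chains are shown because their genes behaved differently between the stages described further on: Col3a1 was low in all 1dEB libraries, whereas Col1a2 and Col6a1 were high in ST-1dEB and in all 1dMeioLC libraries. The stretches lie within the 250 bases before the RefSeq start site on GRCm38 and leave out bases that GENCODE M21 assigns to an exon. Col4a1 and Col4a2 were also taken up but are not shown, since too few of their bases lie outside exons. The Col3a1 stretch has 250 bases and reaches the start, whereas those of Col1a2 (123 bases) and Col6a1 (126 bases) stop short of it. The contents given below are therefore not from like stretches. Capitals mark the letters GGGCGG (the GC box) and TATAAA (the TATA box), searched with CCAAT (the CCAAT box) on both strands. The first, Col3a1, covers chr1:45311288-45311537 on the plus strand, Col1a2 covers chr6:4505370-4505492 on the plus strand, and lies in an intron of the longer GENCODE model of that gene, and Col6a1 covers chr10:76726169-76726294 on the minus strand.
Col3a1: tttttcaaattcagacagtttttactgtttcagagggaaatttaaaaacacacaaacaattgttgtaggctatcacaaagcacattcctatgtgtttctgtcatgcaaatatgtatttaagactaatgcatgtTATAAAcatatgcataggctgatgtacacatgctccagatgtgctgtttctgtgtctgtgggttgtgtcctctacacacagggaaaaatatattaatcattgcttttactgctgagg
Col1a2: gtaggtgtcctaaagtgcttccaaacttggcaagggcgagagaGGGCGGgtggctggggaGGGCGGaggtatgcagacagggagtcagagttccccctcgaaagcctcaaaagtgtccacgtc
Col6a1: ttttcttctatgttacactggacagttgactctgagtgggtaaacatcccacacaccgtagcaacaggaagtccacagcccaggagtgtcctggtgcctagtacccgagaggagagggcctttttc
The Col3a1 stretch was 35.2% G and C and held 1 TATAAA, at position -117 from the start, and no GGGCGG. The Col1a2 stretch was 59.3% G and C and held 2 GGGCGG, and the Col6a1 stretch was 51.6% G and C and held none of the 3 motifs. The full window of Col1a2 also held 1 CCAAT, at -109, which lies outside the stretch shown. Over the full upstream windows of 250 bases, 35 of the 44 genes had an entry, with 38 windows among them. GGGCGG stood in 22 of those 38 windows against 32.7% of all 32851 windows, CCAAT in 13 of 38 against 33.8%, and TATAAA in 5 of 38 against 12.4%. A match describes the letters and says nothing of a factor's binding.

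Summed over the 44 genes, collagen RNA was lowest in PGCs taken from the embryo and in LT-1dEB. The sum was 64.7 ± 0.360 scaled TPM in E10.5PGC and 198 ± 3.16 in LT-1dEB (mean ± SD, n = 2 here and in all sums that follow). In ST-1dEB it was 1054 ± 9.30, 5.31 times the LT mean, and in RT-1dEB it was 571 ± 16.4, 2.88 times the LT mean. The 1dMeioLC sums were closer together, at 698 ± 11.8 in LT, 998 ± 20.3 in ST and 669 ± 2.00 in RT. PGC-1dMeioLC reached 881 ± 15.2, 13.6 times E10.5PGC. As deposited, without the rescaling, the sums were 76.9 ± 1.45 in LT-1dEB, 467 ± 6.54 in ST-1dEB and 161 ± 12.53 in RT-1dEB, so that the ratio of RT to LT was 2.09 in place of 2.88. In bulk RNA, fewer cells of a type and less RNA per cell cannot be told apart.

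The make-up by class differed between the groups too. In LT-1dEB a single gene of the multiplexins, Col18a1, held 50.7% and 51.3% of all collagen TPM, and in E10.5PGC it held 44.6% and 43.4%. Its share was 13.96% and 14.3% in ST-1dEB, 27.4% and 28.3% in RT-1dEB and between 4.34% and 7.68% in the 8 meiocyte-like libraries. The 11 fibrillar genes took 15.6% and 15.9% in LT-1dEB, 44.2% and 44.8% in ST-1dEB and 54.97% to 64.1% in the meiocyte-like libraries. Beaded filament genes went from a sum of 14.1 ± 0.675 scaled TPM in LT-1dEB to 252 ± 9.84 in ST-1dEB, 17.9 times as much, while RT-1dEB stood at 44.7 ± 2.19. Basement membrane network genes summed to 14.8 ± 2.54 in LT-1dEB, 114 ± 2.85 in ST-1dEB and 145 ± 0.250 in ST-1dMeioLC.

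**Figure D1:**
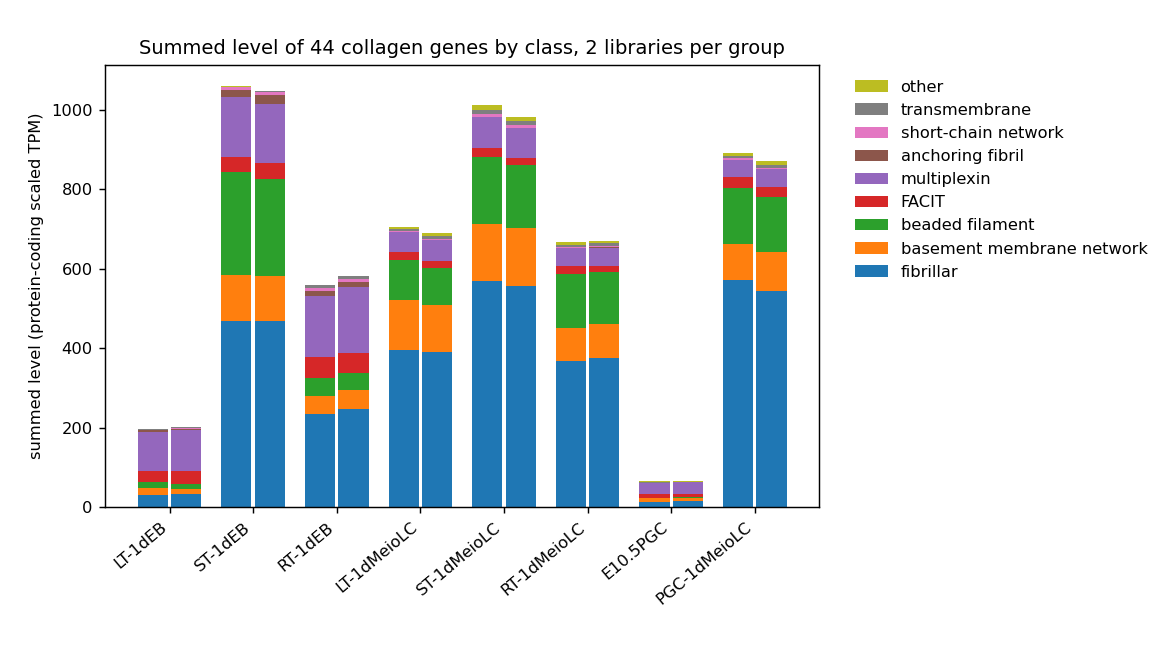
Summed level of the 44 collagen genes in each library, in protein-coding scaled TPM from 0 upward, with 1 stacked bar per library, 2 bars per group and colours for collagen classes. The 2 libraries of a group stand at nearly the same height; LT-1dEB and E10.5PGC are low, with multiplexins as their largest class, and the meiocyte-like libraries are mostly fibrillar.

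Fibrillar chains held the largest share of collagen TPM in every group but LT-1dEB and E10.5PGC, where the multiplexins did (50.7% and 51.4%, and 44.8% and 43.8%). Col1a1 (chromosome 11, 94936224 to 94953042 on mm10), the main chain of type I collagen of skin and bone, was measured at 7.52 and 7.62 scaled TPM in LT-1dEB, 213 in both libraries in ST-1dEB and 123 and 128 in RT-1dEB. Meiocyte-like libraries held it at 195 and 196 in LT, 324 and 317 in ST, 185 and 202 in RT and 357 and 329.8 in PGC-1dMeioLC, against 4.91 and 6.45 in E10.5PGC. The 3 1dEB groups do not overlap, whereas LT and RT do at 1dMeioLC. Its partner Col1a2 (chromosome 6, 4504814 to 4541544) stood at 7.21 and 6.41 in LT-1dEB, 102 and 101 in ST-1dEB, 38.4 and 42.5 in RT-1dEB and 1.25 and 1.35 in E10.5PGC. At the meiocyte stage it was 68.0 and 68.9 in LT, 89.4 and 90.7 in ST, 59.0 and 59.4 in RT and 76.4 and 77.4 in PGC-1dMeioLC. Col1a2 thus had its highest level in ST-1dEB and Col1a1 in PGC-1dMeioLC. Col3a1 (chromosome 1, 45311538 to 45349706), the type III chain of soft and growing tissue, was low in all 1dEB libraries, at 0.616 and 0.519 in LT, 16.8 in both libraries in ST and 7.36 and 8.65 in RT. It stood at 104 and 97.96 in LT-1dMeioLC, 108 and 109 in ST-1dMeioLC, 90.3 and 83.0 in RT-1dMeioLC, 102 and 101 in PGC-1dMeioLC and 2.40 and 1.95 in E10.5PGC. No 1dEB library came near the lowest meiocyte-like library for this chain.

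Type V collagen sets the width of type I fibres, and its 3 chains did not run in parallel. Col5a1 (chromosome 2, 27886425 to 28039514) was measured at 3.32 and 3.44 scaled TPM in LT-1dEB, 32.6 and 34.9 in ST-1dEB and 16.5 and 17.99 in RT-1dEB. Its meiocyte-like values were 8.72 and 8.77 in LT, 18.4 and 17.4 in ST, 10.4 and 10.7 in RT and 14.3 and 14.5 in PGC-1dMeioLC, with 0.950 and 1.07 in E10.5PGC. Col5a2 (chromosome 1, 45374321 to 45503282), which lies 24614 bp from Col3a1 and on the other strand, stood at 3.57 in both libraries in LT-1dEB, 32.8 and 31.2 in ST-1dEB, 13.3 and 13.4 in RT-1dEB and 0.954 and 0.420 in E10.5PGC. It was 16.8 and 15.5 in LT-1dMeioLC, 21.3 and 18.7 in ST-1dMeioLC, 17.98 and 16.3 in RT-1dMeioLC and 16.6 and 16.7 in PGC-1dMeioLC, so the meiocyte-like groups lay close together. Col5a3 (chromosome 9, 20770050 to 20815067), the rarer of the type V chains, was abundant in ST-1dEB with 56.8 and 56.7, beside 2.22 and 3.60 in LT-1dEB and 22.4 and 22.8 in RT-1dEB. It was listed at 0 in both ST-1dMeioLC libraries and did not pass 0.434 in the other meiocyte-like libraries, and E10.5PGC held 0.672 and 0.937. The neighbours Col3a1 and Col5a2 therefore differed in order, since Col5a2 was highest in ST-1dEB and Col3a1 at the meiocyte stage. Col27a1 (chromosome 4, 63214004 to 63334991), a fibrillar chain of cartilage, stood at 2.90 and 2.60 in LT-1dEB, 10.1 and 11.2 in ST-1dEB and 5.02 and 6.13 in RT-1dEB, and at most 1.82 in every other library.

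Col4a1 (chromosome 8, 11198423 to 11312826) and Col4a2 (chromosome 8, 11312805 to 11449287) encode the chains of the common type IV network, point away from each other and start 21 bp apart. Col4a1 was measured at 8.37 and 7.57 scaled TPM in LT-1dEB, 57.1 and 56.8 in ST-1dEB and 22.4 and 23.9 in RT-1dEB. Its meiocyte-like values were 62.6 and 61.3 in LT, 78.1 and 72.5 in ST, 41.9 and 40.6 in RT and 41.7 and 47.6 in PGC-1dMeioLC, and E10.5PGC held 5.43 and 5.17. Col4a2 followed with 7.23 and 4.97 in LT-1dEB, 55.9 and 53.8 in ST-1dEB, 21.5 and 22.7 in RT-1dEB and 2.07 and 3.45 in E10.5PGC. It reached 52.5 and 47.1 in LT-1dMeioLC, 54.996 and 57.9 in ST-1dMeioLC, 35.6 and 36.9 in RT-1dMeioLC and 33.1 and 36.8 in PGC-1dMeioLC. For both chains ST-1dEB was several times LT-1dEB, and RT-1dMeioLC was lower than LT-1dMeioLC in every library. Their first exons overlap by 22 bp on opposite strands, and whether strand was used is not stated, so reads inside that overlap cannot be told apart. Col4a5 (chromosome X, 141475385 to 141689234), a chain of specialised basement membranes such as that of the kidney, stood between 0.413 and 2.56 in the 1dEB and E10.5PGC libraries. It was 8.44 and 7.73 in LT-1dMeioLC, 8.30 and 10.3 in ST-1dMeioLC, 4.53 and 5.85 in RT-1dMeioLC and 12.6 and 11.6 in PGC-1dMeioLC.

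Type VI collagen is assembled from different chains, and all 3 abundant ones were highest in ST among the 1dEB groups. Col6a1 (chromosome 10, 76708792 to 76726168) was measured at 6.21 and 7.08 scaled TPM in LT-1dEB, 135 and 126 in ST-1dEB and 23.5 and 20.5 in RT-1dEB. It was 69.1 and 64.0 in LT-1dMeioLC, 118 and 113 in ST-1dMeioLC, 95.9 and 92.4 in RT-1dMeioLC, 98.5 and 93.8 in PGC-1dMeioLC and 0.498 and 0.537 in E10.5PGC. None of the groups of different telomere state overlap at either stage. Col6a2 (chromosome 10, 76595762 to 76623630) lies 85161 bp from Col6a1 on the same strand and stood at 3.33 and 2.78 in LT-1dEB, 54.8 and 53.6 in ST-1dEB, 7.93 and 7.16 in RT-1dEB and 0.393 and 0.161 in E10.5PGC. Its meiocyte-like values were 22.5 and 23.03 in LT, 38.2 and 32.5 in ST, 28.3 and 29.0 in RT and 33.7 and 36.0 in PGC-1dMeioLC. Col6a3 (chromosome 1, 90765923 to 90843971), the large chain, stood at 3.70 and 3.21 in LT-1dEB, 67.3 and 63.8 in ST-1dEB and 10.95 and 12.9 in RT-1dEB. At the meiocyte stage it kept between 6.05 and 10.9, and E10.5PGC held 0.219 and 0.309. Col6a3 was thus far below Col6a1 in every meiocyte-like library. The further type VI genes Col6a4, Col6a5 and Col6a6 did not pass 1.85 in any library.

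The remaining named genes had patterns of their own. Col18a1 (chromosome 10, 77052178 to 77166548), the source of endostatin, was measured at 99.4 and 103 scaled TPM in LT-1dEB, 148 and 149.7 in ST-1dEB and 153 and 165 in RT-1dEB, and at 28.8 and 28.2 in E10.5PGC. Its meiocyte-like values were lower, at 50.1 and 52.3 in LT, 76.6 and 75.5 in ST, 46.2 and 43.8 in RT and 38.7 and 41.1 in PGC-1dMeioLC. Col7a1 (chromosome 9, 108953586 to 108984875), the anchoring fibril of skin, stood at 2.79 and 2.92 in LT-1dEB, 17.98 and 21.4 in ST-1dEB and 12.97 and 13.9 in RT-1dEB, and at no more than 1.16 elsewhere. The fibril-associated Col16a1 (chromosome 4, 130047840 to 130099283) was high in ST-1dEB, with 18.98 and 21.9, and in RT-1dEB, with 14.4 and 10.8. In LT-1dEB, with 2.16 and 2.40, it lay within the range of 0.0646 to 4.19 of the libraries outside 1dEB. Col26a1 (chromosome 5, 136741759 to 136883209), first described in developing testis and ovary, ran the other way from Col7a1. Its values were 0.136 to 0.739 in the 1dEB libraries and 1.01 and 0.822 in E10.5PGC. It stood at 6.49 and 7.86 in LT-1dMeioLC, 11.9 and 10.6 in ST-1dMeioLC, 6.77 and 6.71 in RT-1dMeioLC and 8.17 and 8.20 in PGC-1dMeioLC. Type IX chains decorate cartilage fibrils, and Col9a3 (chromosome 2, 180597790 to 180622189) was measured at 18.95 and 21.1 in LT-1dEB, 9.94 and 10.98 in ST-1dEB and 16.2 and 18.1 in RT-1dEB, so that ST was the lowest of the 3. It was 4.42 to 9.87 in the meiocyte-like libraries and 2.66 and 3.57 in E10.5PGC, and its exons overlap those of Tcfl5 on the other strand by 234 bp. Col9a2 (chromosome 4, 121039385 to 121055322) stood at 6.996 and 7.33 in LT-1dEB, 5.12 and 3.96 in ST-1dEB, 12.1 and 13.1 in RT-1dEB, 2.67 to 11.5 in the meiocyte-like libraries and 2.32 and 0.868 in E10.5PGC.

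Of the other 25 genes, 13 passed the filter of 1 deposited TPM in 2 libraries and reached at most 6.33 scaled TPM, the value of Col8a1 in an RT-1dEB library. The remaining 12 were not tested and stayed at or below 2.64 scaled TPM, the value of Col17a1 in an RT-1dEB library. Of those tested, Col25a1 reached 1 deposited TPM only in ST-1dMeioLC, Col14a1 and Col15a1 only in PGC-1dMeioLC and Col9a1 only in E10.5PGC. Each was tested only because it was high in that group, so its calls against that group carry no independent weight. Col13a1 reached 1 deposited TPM in ST-1dMeioLC (1.53 and 1.47) and otherwise only in RT-1dMeioLC replicate 1 (1.13). Without ST-1dMeioLC it would not have been tested. Col20a1 reached 1 only in ST-1dEB replicate 1 (1.03) and RT-1dEB replicate 1 (1.04). The calls of these genes against those groups carry no independent weight either. Col28a1 was listed at 0 in every library but the 2 of ST-1dEB. On scaled TPM the group with the highest mean among the 44 genes was ST-1dEB for 12, RT-1dEB for 11, ST-1dMeioLC for 11 and PGC-1dMeioLC for 7. LT-1dEB, RT-1dMeioLC and E10.5PGC were each highest for 1. These counts include the 12 untested genes, were not made for all genes and depend on the scaling. As deposited, Col18a1 stood at 65.8 and 66.1 TPM in ST-1dEB against 41.7 and 48.0 in RT-1dEB, and Col8a1 at 2.11 and 2.02 against 1.58 and 1.84.

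**Figure D2:**
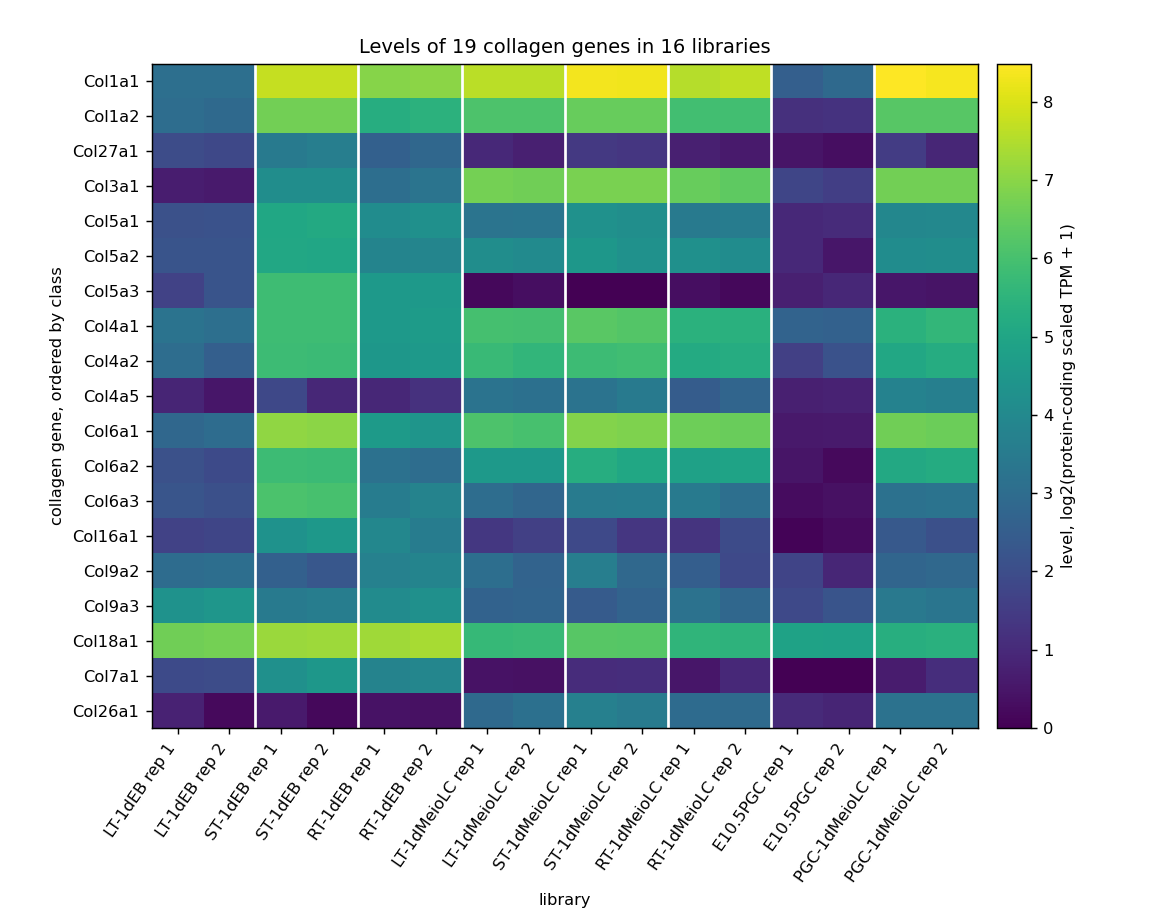
Levels of the 19 collagen genes with a group mean of at least 10 scaled TPM (rows, ordered by class) in the 16 libraries (columns), with colour for log2(protein-coding scaled TPM + 1). Col3a1, Col4a5 and Col26a1 are brightest in meiocyte-like columns, and Col5a3, Col7a1 and Col16a1 in 1dEB columns, for Col16a1 only those of ST and RT.

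Ratios of chains within a library do not depend on the scaling, and some of them did not overlap between 1dEB and meiocyte-like libraries. The ratio of Col3a1 to Col1a1 lay between 0.0598 and 0.0819 in the 6 1dEB libraries, although Col1a1 itself spanned 7.52 to 213 scaled TPM there. In the meiocyte-like libraries it was 0.531 and 0.500 in LT, 0.334 and 0.343 in ST, 0.487 and 0.412 in RT and 0.285 and 0.305 in PGC-1dMeioLC, so the stages do not overlap. The ratio of Col6a3 to Col6a1 was 0.454 to 0.629 in 1dEB and 0.0800 to 0.105 in the meiocyte-like libraries. Col5a3 to Col5a1 gave 0.668 and 1.05 in LT-1dEB, 1.74 and 1.62 in ST-1dEB and 1.36 and 1.27 in RT-1dEB, and 0 to 0.0304 at the meiocyte stage. The E10.5PGC libraries stood at 0.439 and 0.575 for Col6a3 to Col6a1 and 0.708 and 0.877 for Col5a3 to Col5a1, with most of these genes under 1 scaled TPM. Their Col3a1 to Col1a1 ratios of 0.488 and 0.302 lay within the range of the meiocyte-like libraries. Col4a1 to Col4a2 stayed between 1.02 and 1.52 in all libraries but E10.5PGC replicate 1, which had 2.62. E10.5PGC replicate 2, at 1.4997, lay inside that range. Col1a1 to Col1a2 was 1.04 and 1.19 in LT-1dEB, 2.09 and 2.12 in ST-1dEB and 3.20 and 3.00 in RT-1dEB, groups that do not overlap; the meiocyte-like libraries, at 2.84 to 4.67, overlapped RT-1dEB. These ratios are a description, and no test was run on them.

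**Figure D3:**
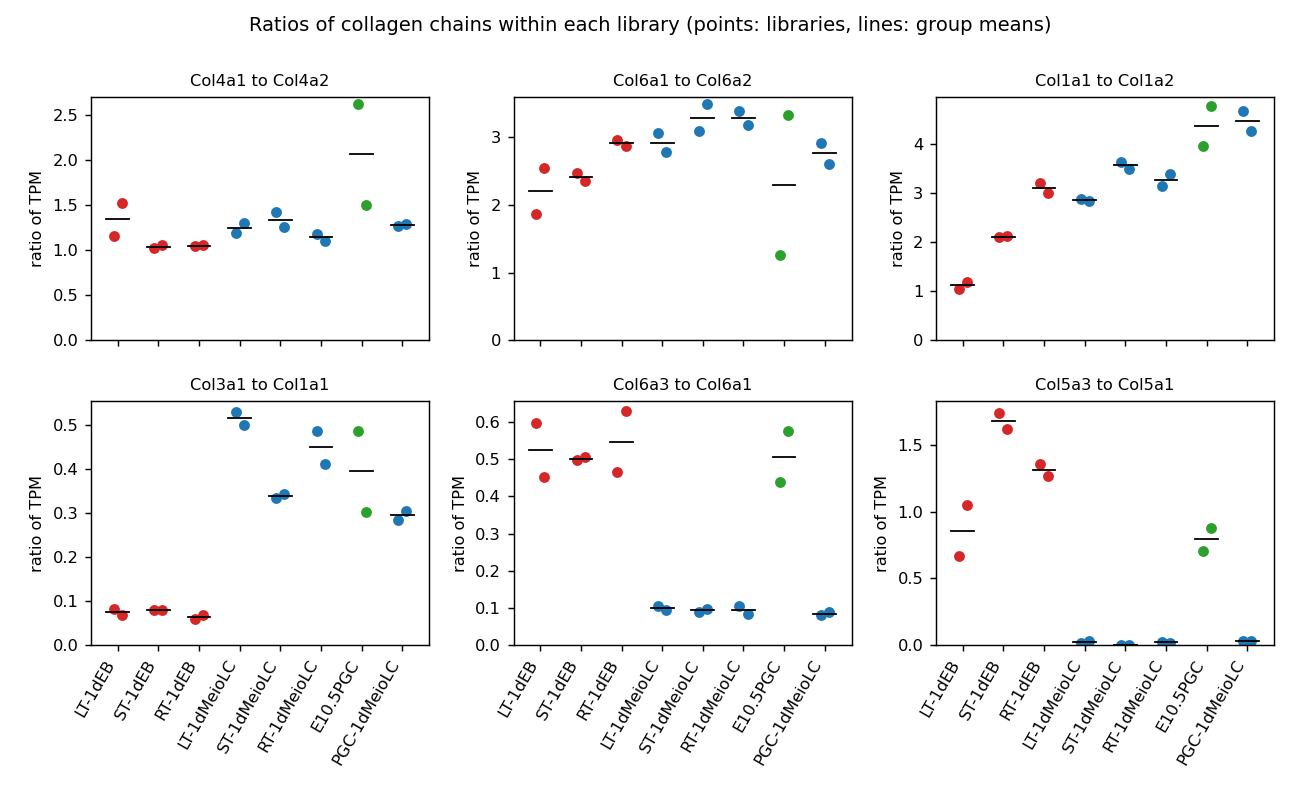
Ratios of the deposited TPM of collagen chains within each library, 1 panel per pair and an axis from 0 in each; points are libraries (red 1dEB, blue meiocyte-like, green E10.5PGC) and lines are group means of 2. Col3a1 to Col1a1 is at or under 0.0819 in every 1dEB library and at least 0.285 in every meiocyte-like library.

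The first comparison sets embryoid bodies with short telomeres against those with long ones, ST-1dEB against LT-1dEB. Most collagen genes were higher with short telomeres: 21 of the 32 tested were called higher and 2 lower, where 40.7% of all genes tested were called, 22% higher and 18.8% lower. The median difference over the 32 was 1.16 against 0 over all genes, and 17 of the 21 were at least 1 higher on the log2 scale. Among fibrillar chains Col1a1 changed most, by 4.64 (SE 0.09, adjusted p = 3.7e-10), with 3.91 for Col5a3, 3.71 for Col1a2 and 3.51 for Col3a1. The other fibrillar chains called higher were Col5a1 with 2.99, Col5a2 with 2.85 and Col27a1 with 1.64. Type VI chains rose together, by 4.11 (SE 0.08, adjusted p = 3.7e-10) for Col6a1, 3.90 for Col6a3 and 3.77 for Col6a2. The network chains rose by 2.99 for Col4a2 and 2.69 for Col4a1, whereas Col4a5 differed by 0.70 (SE 0.27, adjusted p = 0.061). Col4a5 was called without ST-1dEB replicate 2 (1.15, adjusted p = 0.004) and with a pseudocount of 0.1 (adjusted p = 0.044). Col16a1 rose by 2.70, Col7a1 by 2.42 and Col18a1 by 0.55 (SE 0.05, adjusted p = 1.7e-05). Outside the most abundant genes, Col8a1, a short-chain collagen of vessel walls and cornea, rose by 2.09, Col12a1 by 1.17 and Col20a1 by 1.14. Col20a1 passed the filter only through ST-1dEB and RT-1dEB, so it was tested only because it was high there.

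Both genes called lower, Col9a3 and Col2a1, are chains of cartilage, but the cartilage chain Col27a1 was called higher and Col9a2 was not called. Col9a3 fell by 0.88 (SE 0.16, adjusted p = 0.0013) and Col9a2 differed by -0.57 (SE 0.32, adjusted p = 0.2). Col2a1, the main cartilage fibril chain and a gene named after its values were seen, fell from 1.91 and 2.85 scaled TPM to 1.19 and 1.32, a change of -0.57 (SE 0.19, adjusted p = 0.035). That call was lost without LT-1dEB replicate 2 (adjusted p = 0.2), without ST-1dEB replicate 1 (0.11) and without ST-1dEB replicate 2 (0.068), and with raw TPM (0.12), a pseudocount of 0.1 (0.087) or no filter (0.066). Col26a1 differed by -0.11 (adjusted p = 0.74).

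Genes that make, bind and remove collagen moved in the same comparison, where 22% of all genes were called higher and 18.8% lower. Of 27 tested genes for collagen synthesis and assembly, 22 were higher and 0 lower, among them Lox, a crosslinking oxidase, by 3.31 (SE 0.19, adjusted p = 3.2e-07), and Bmp1, which removes the propeptide, by 3.20 (SE 0.10, adjusted p = 4.9e-09). P4ha3, a prolyl hydroxylase subunit, rose by 3.04 (SE 0.37, adjusted p = 8.1e-05). Of 7 tested receptors 6 were higher, with Ddr2, a receptor kinase for fibrillar collagen, at 2.67 (SE 0.16, adjusted p = 4.1e-07) and Itgb1, the shared integrin chain, at 1.83 (SE 0.07, adjusted p = 2.5e-08). Of 6 degrading enzymes 5 were higher, with Mmp9 at 3.23 (SE 0.32, adjusted p = 1.9e-05) and Mmp2 at 2.91 (SE 0.10, adjusted p = 1.1e-08). Of 12 tested laminins, nidogens and proteoglycans of the basement membrane 7 were higher and 1 lower, with Nid1 at 2.66 (SE 0.13, adjusted p = 1.3e-07) and Lama1 at 2.30 (SE 0.15, adjusted p = 1e-06).

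Markers of other cell types moved with these genes, beside shares of 22% higher and 18.8% lower over all genes. The 12 fibroblast and stroma markers were all called higher, and their summed level went from 577 and 570.4 scaled TPM in LT-1dEB to 3361 and 3369.5 in ST-1dEB, with 1336 and 1348 in RT-1dEB. Fap was listed at 0 in both LT-1dEB libraries, and all 12 had a mean of at least 1 scaled TPM in ST-1dEB. The list holds Fn1 and Sparc, which many cell types express. Pdgfrb, a receptor of mesenchymal cells, stood at 2.94 and 3.80 scaled TPM in LT-1dEB and at 64.7 and 61.7 in ST-1dEB. Of 9 extra-embryonic endoderm markers 7 were higher, with sums of 14.7 and 13.3 in LT-1dEB, 85.2 and 87.6 in ST-1dEB and 19.8 and 17.9 in RT-1dEB. Of 10 gonadal somatic markers 5 were higher and 1 lower, with sums of 55.8 and 65.6 in LT-1dEB, 144 and 146 in ST-1dEB and 62.0 and 60.6 in RT-1dEB. Endothelial markers summed to 9.48 to 17.2 in all 1dEB libraries, with 0 of 4 tested higher and 1 lower. Germ cell markers summed to 209 and 187 in LT-1dEB, 115 and 128 in ST-1dEB and 209 and 201 in RT-1dEB, and pluripotency markers to 2052 and 2165, to 1291 and 1286 and to 1843 and 2022 in the same 3 groups. Their part in the collagen result was not tested.

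**Figure D4:**
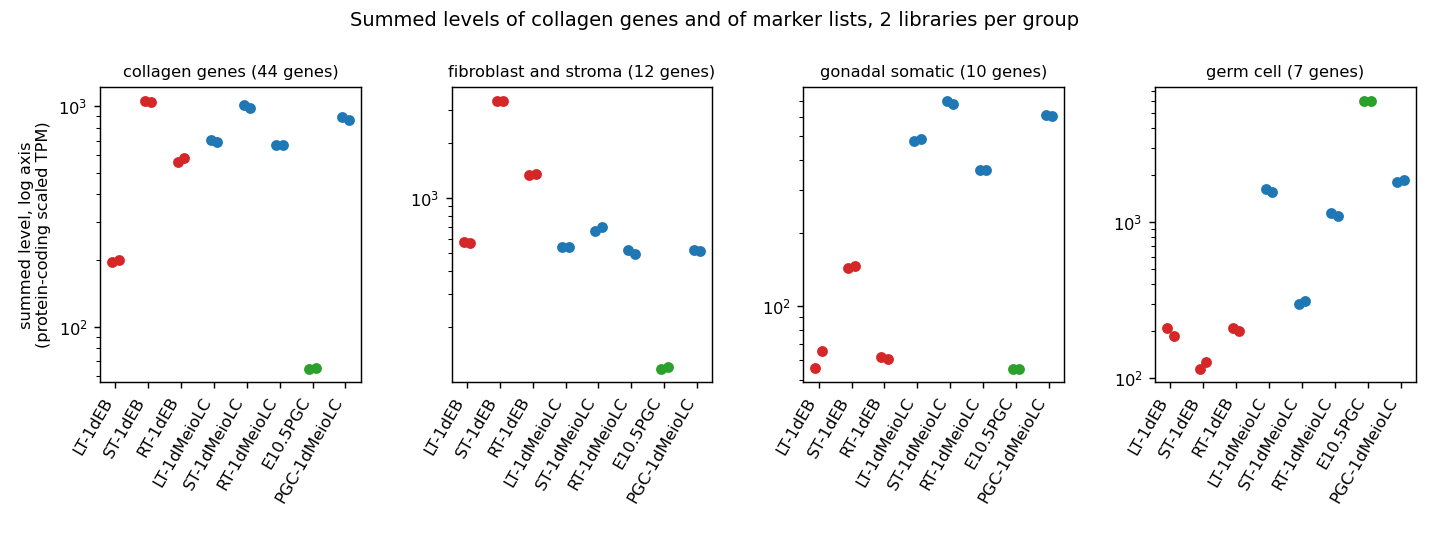
Summed level of the 44 collagen genes and of 3 marker lists in each library, in protein-coding scaled TPM on log axes whose ranges differ between panels; red points are 1dEB, blue meiocyte-like and green E10.5PGC libraries. Fibroblast and stroma markers are highest in ST-1dEB, gonadal somatic markers in ST-1dMeioLC and germ cell markers in E10.5PGC.

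Rescue of Terc was compared with the knockout in embryoid bodies, RT-1dEB against ST-1dEB. Of the 32 genes tested 13 were called lower and 6 higher, where 35.7% of all genes were called, 18.6% higher and 17% lower; the median was -0.19 against 0.04 over all genes. On raw TPM 16 were lower and 2 higher (49.7% of all genes called, 5.14% higher and 44.6% lower), with the median of all genes at -0.38. Type VI chains fell most, by 2.69 for Col6a2 (SE 0.12, adjusted p = 2.1e-07), 2.52 for Col6a1 and 2.37 for Col6a3. The differences in the fibrillar chains called lower were -1.30 for Col1a2, -1.29 for Col5a3 and -1.20 for Col5a2, with -0.99 for Col3a1, -0.93 for Col5a1 and -0.76 for Col1a1. Col4a2 and Col4a1 fell as well, with differences of -1.27 and -1.26. Col16a1 (-0.67, SE 0.25, adjusted p = 0.066), Col7a1 (-0.52, SE 0.20, adjusted p = 0.071) and Col4a5 (-0.31, SE 0.27, adjusted p = 0.41) were not called, nor were Col18a1 (0.09, SE 0.05, adjusted p = 0.22) and Col26a1 (-0.01, SE 0.21, adjusted p = 1).

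Some of these values or calls changed with the scaling or when 1 library was left out. Col18a1 was 0.09 here, -0.55 (adjusted p = 5.7e-05) on raw TPM and 0.21 (adjusted p = 0.0095) after quantile normalization. On raw TPM the difference was -1.02 for Col7a1 and -1.15 for Col16a1, both called (adjusted p = 0.00024 and 0.00073). Col4a5 was called lower (adjusted p = 0.035) without ST-1dEB replicate 2. Col27a1 fell by 0.83 (adjusted p = 0.011), a call that was lost without ST-1dEB replicate 2 (0.059), without RT-1dEB replicate 1 (0.06) and with a pseudocount of 0.1 (0.085).

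The genes that rose included cartilage and cell surface collagens, whereas the cartilage chain Col27a1 fell, as given above. Col13a1, a transmembrane collagen of neuromuscular junctions, went from 0.191 and 0.484 scaled TPM to 3.32 and 2.75, a difference of 1.60 (SE 0.24, adjusted p = 0.00049). Col2a1 went from 1.19 and 1.32 to 3.93 and 4.39 and rose by 1.19 (SE 0.19, adjusted p = 0.00081). Col9a2 rose by 1.30 (SE 0.32, adjusted p = 0.01) and Col9a3 by 0.66 (SE 0.16, adjusted p = 0.0083). The Col9a2 call was lost without ST-1dEB replicate 2 (adjusted p = 0.066), without RT-1dEB replicate 2 (0.06) and on raw TPM (0.1), and the Col9a3 call without ST-1dEB replicate 1 (0.052), without RT-1dEB replicate 2 (0.057) and on raw TPM (0.83). Col15a1, the other multiplexin, fell by 0.78 (adjusted p = 0.014), which was lost without ST-1dEB replicate 1 (0.078).

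Genes around collagen followed in this comparison, where 18.6% of all genes were called higher and 17% lower. In synthesis and assembly 21 of 27 were lower and 1 higher, with Lox at -1.84 (SE 0.19, adjusted p = 4.4e-05) and P4ha1, a catalytic prolyl hydroxylase subunit, at -1.52 (SE 0.09, adjusted p = 1.2e-06). Of the 7 receptors 4 were lower and 0 higher, of the 6 degrading enzymes 5 were lower and 0 higher, and of the 12 basement membrane partners 5 were lower and 2 higher. Lama1, the laminin chain of early embryos, fell by 3.88 (adjusted p = 1.5e-07) from 25.7 and 27.9 to 1.13 and 0.666 scaled TPM. Of the 12 fibroblast and stroma markers 11 were lower and 0 higher, and of 9 extra-embryonic endoderm markers 7 were lower and 0 higher; their part in the result was not tested.

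Rescued embryoid bodies were also set against LT-1dEB, a comparison that shares a group with each of the 2 above. Most collagen genes were higher in RT-1dEB than in LT-1dEB: 22 of 32 genes were called higher and 0 lower, where 37.9% of all genes were called, 23.5% higher and 14.4% lower; the median was 1.10 against 0.10 over all genes. On raw TPM 18 were higher and 1 lower, with 41.6% of all genes called, 10.7% higher and 30.9% lower. Col1a1 was higher by 3.88 (SE 0.09, adjusted p = 6e-09), with 2.62 for Col5a3, 2.52 for Col3a1 and 2.41 for Col1a2, and 2.06 for Col5a1 and 1.65 for Col5a2. The type VI chains differed by 1.59 for Col6a1, 1.54 for Col6a3 and 1.08 for Col6a2, the network chains by 1.72 for Col4a2 and 1.43 for Col4a1. Col16a1 (2.04), Col7a1 (1.90) and Col18a1 (0.65) were called higher too, with Col8a1 (2.41), Col20a1 (1.90) and Col12a1 (1.85) from the lower genes. The limit on Col20a1 from the filter holds here as well. Col9a3 (-0.21, SE 0.16, adjusted p = 0.33), Col9a2 (0.74, SE 0.32, adjusted p = 0.1), Col4a5 (0.39, SE 0.27, adjusted p = 0.29) and Col26a1 (-0.12, SE 0.21, adjusted p = 0.71) were not called. On raw TPM Col9a3 was called lower, with -0.59 (adjusted p = 0.0082). Col27a1 was called at 0.81 (adjusted p = 0.012) and lost that call without LT-1dEB replicate 2 (0.057), without RT-1dEB replicate 2 (0.066), on raw TPM (0.14), after quantile normalization (0.12) and with a pseudocount of 0.1 (0.064). Of the genes for synthesis and assembly 18 of 27 were higher and 2 lower, and all 12 fibroblast and stroma markers were higher, whose part was not tested.

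After induction, aggregation and the sort, ST and LT were compared as meiocyte-like cells. In ST-1dMeioLC against LT-1dMeioLC 13 of 32 genes passed the test as higher and 2 as lower, where 33.9% of all genes were called, 20.1% higher and 13.8% lower; the median was 0.38 against 0.01 over all genes. Col5a1 changed most among the abundant genes, by 0.96 (SE 0.09, adjusted p = 3.4e-05), followed by Col6a1 with 0.79 (SE 0.08, adjusted p = 8.3e-05) and Col1a1 with 0.71 (SE 0.09, adjusted p = 0.00027). Col6a3 rose by 0.62, Col6a2 by 0.61, Col18a1 by 0.56 and Col1a2 by 0.39. Col3a1 (0.10, SE 0.09, adjusted p = 0.43), Col5a2 (0.29, SE 0.14, adjusted p = 0.13) and Col4a2 (0.18, SE 0.17, adjusted p = 0.49) were not called. The same held for Col5a3 (-0.24), Col9a3 (-0.13), Col9a2 (0.38), Col16a1 (0.10), Col27a1 (0.52), Col4a5 (0.17) and Col26a1 (0.59, adjusted p = 0.054, and 0.021 on raw TPM). Col5a3, which both ST libraries list at 0, was called lower with a pseudocount of 0.1 (adjusted p = 0.0087).

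Several of these calls were close to the threshold. Col4a1, at 0.28 (adjusted p = 0.021), was not called without LT replicate 1 (0.066), LT replicate 2 (0.1) or ST replicate 1 (0.12), nor on raw TPM (0.13) or after quantile normalization (0.089). Col7a1, at 0.70 (adjusted p = 0.021), was lost when 1 library, whichever of the 4, was left out (0.07 to 0.084), and Col6a3 without LT replicate 2 (0.057). Col6a2 was lost with a pseudocount of 0.1 (0.067). Among the lower genes Col8a2, a chain of the corneal membrane, went from 1.37 and 1.67 scaled TPM to 5.35 and 5.54 and rose by 1.36 (SE 0.26, adjusted p = 0.003). Col25a1, a transmembrane collagen of neurons, went from 0.767 and 0.745 to 3.35 and 2.96 and rose by 1.24 (SE 0.25, adjusted p = 0.0036). Col25a1 passed the filter only through ST-1dMeioLC, so it was tested only because it was high there. The calls of Col8a2 and Col25a1 were lost with a pseudocount of 0.1 (0.071 and 0.06). Col9a1 (-1.12, SE 0.23, adjusted p = 0.0045) and Col8a1 (-0.66, SE 0.16, adjusted p = 0.0092), the latter named after its value was seen, were the 2 called lower. Each stood at 0 in both ST libraries, and the Col8a1 call was lost without LT replicate 2 (0.053).

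Markers of gonadal somatic cells were present in all meiocyte-like libraries, which were sorted as negative for GFP. The 10 gonadal somatic markers summed to 479.5 and 488 scaled TPM in LT, 698 and 679.8 in ST, 362 in both libraries in RT and 612 and 602 in PGC-1dMeioLC, against 55.3 in both libraries in E10.5PGC. Foxl2, which marks ovarian granulosa cells, stood at 14.9 and 16.3 in LT and 21.9 and 18.1 in ST, and was listed at 0 in both E10.5PGC libraries. Wt1, a gene of gonadal and kidney mesothelium, stood at 63.9 and 56.3 in LT, 114 and 108 in ST and 53.1 and 50.0 in RT. In ST against LT 5 of the 10 were higher and 1 lower, and of the 12 fibroblast and stroma markers 3 were higher and 4 lower, with sums of 544 and 541 in LT and 662 and 697 in ST. Of all genes 20.1% were called higher and 13.8% lower, so the 3 higher of 12 lie near that share. Germ cell markers summed to 1629 and 1556 in LT, 301 and 313 in ST, 1152 and 1095 in RT and 1828 and 1865 in PGC-1dMeioLC. Endothelial markers summed to 16.7 to 35.8 and were low throughout, with Cdh5 and Emcn listed at 0 in ST. The part of these cell types in the collagen levels was not tested.

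The lists of genes around collagen were counted here too, where 20.1% of all genes were called higher and 13.8% lower. Of 27 genes for synthesis and assembly 9 were higher and 3 lower in ST-1dMeioLC, and Lox was among the lower ones with -0.9998 (SE 0.19, adjusted p = 0.0025). Of 7 receptors 3 were higher and 1 lower, with Itga1, an integrin chain for network collagen, at 0.85 (SE 0.15, adjusted p = 0.0016). Mmp14 (0.95, SE 0.14, adjusted p = 0.00069) and Mmp2 (0.82, SE 0.10, adjusted p = 0.0002) were the degrading enzymes called higher, and none of the 6 was called lower. Of the 12 basement membrane partners 7 were higher and 1 lower, with Lama3 at 1.10 (SE 0.15, adjusted p = 0.00045) and Hspg2, the proteoglycan perlecan, at 0.85 (SE 0.16, adjusted p = 0.0029).

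**Figure D5:**
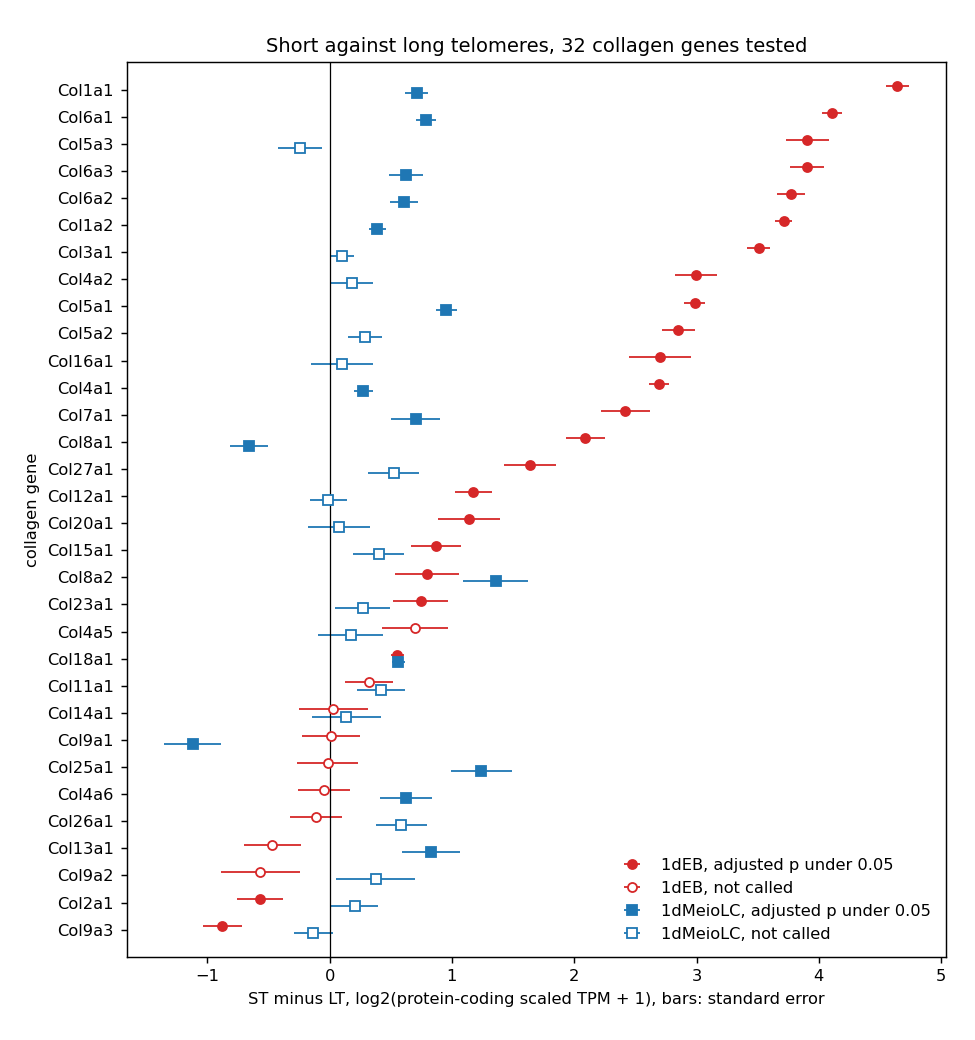
Difference of ST minus LT for the 32 collagen genes tested, on the scale log2(protein-coding scaled TPM + 1) with limma's standard error as bars, in embryoid bodies (red circles) and meiocyte-like cells (blue squares); filled symbols are called. Embryoid body values reach 4.64 for Col1a1, while the largest meiocyte-like value is 1.36 for Col8a2.

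The difference between the stages in ST minus LT was tested as an interaction. It was called for 22 of 32 genes, 18 with a smaller or more negative difference at 1dMeioLC and 4 with a larger one, where 37.8% of all genes were called, 18.8% lower and 18.9% higher. The interaction was -4.15 (SE 0.25, adjusted p = 1.3e-06) for Col5a3 and -3.93 (SE 0.13, adjusted p = 3.8e-08) for Col1a1. It was -3.40 for Col3a1, -3.32 for Col6a1 and -3.32 for Col1a2. Col18a1, whose ST minus LT differences were 0.55 and 0.56, had an interaction of 0.01 (SE 0.08, adjusted p = 0.96), and one of -0.28 (adjusted p = 0.042) on raw TPM. Col4a5 and Col26a1 had interactions that were not called, of -0.53 (adjusted p = 0.31) and 0.70 (adjusted p = 0.092); without ST-1dEB replicate 2 that of Col4a5 was called (-0.98, 0.031), and without LT-1dEB replicate 2 or ST-1dEB replicate 1 that of Col26a1 was (0.98, 0.02, and 0.92, 0.044).

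The rescued cells were compared with the knockout at the meiocyte stage, RT-1dMeioLC against ST-1dMeioLC. Of 32 genes 13 were called lower and 1 higher, where 34.5% of all genes were called, 24.1% lower and 10.4% higher; the median was -0.35 against -0.11 over all genes. The count of 14 fell to 7 without ST replicate 1, to 9 without RT replicate 1 and to 9 without RT replicate 2. Col4a1 fell by 0.85 (SE 0.08, adjusted p = 4.8e-05), Col18a1 by 0.74 (adjusted p = 1.2e-05), Col1a1 by 0.73, Col5a1 by 0.71 and Col1a2 by 0.60. These 5 calls held when any single library was left out. Col25a1, among the lower genes, was at -1.24 (SE 0.25, adjusted p = 0.0037) and lost its call with a pseudocount of 0.1 (0.058). It passed the filter only through ST-1dMeioLC.

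The other calls of this comparison were lost when single libraries were left out. Such a fit leaves 1 library in a group, so a lost call does not show that 1 library carried it. Col3a1 (-0.32, adjusted p = 0.022) was lost without ST replicate 1 (0.076), ST replicate 2 (0.077) or RT replicate 2 (0.13), and on raw TPM (0.082). Col6a1 (-0.29, 0.019) was lost without ST replicate 1 (0.096), RT replicate 1 (0.051) or RT replicate 2 (0.095), and on raw TPM (0.062). Col4a2 (-0.63, 0.019), Col26a1 (-0.66, 0.033) and Col27a1 (-0.70, 0.026) were each lost when 1 library, whichever of the 4, was left out, with adjusted p of 0.058 to 0.083, 0.069 to 0.14 and 0.057 to 0.12. Col9a2 (-1.05, 0.029) was lost without ST replicate 1 (0.21) or RT replicate 2 (0.2). Col8a2 (-1.001, 0.014) was lost without ST replicate 1 (0.053), ST replicate 2 (0.059) or RT replicate 1 (0.1), and Col9a1, the gene called higher (0.92, 0.012), without RT replicate 1 (0.067). Quantile normalization also ended the calls of Col3a1, Col6a1, Col26a1, Col9a2, Col4a2 and Col8a2 (adjusted p between 0.078 and 0.15). A pseudocount of 0.1 ended those of Col26a1 (0.34), Col8a2 (0.19), Col3a1 (0.054) and Col9a2 (0.054), and testing without the filter those of Col26a1 (0.063), Col27a1 (0.053) and Col9a2 (0.051).

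The remaining named genes were not called, with Col5a2 at -0.21 (SE 0.14, adjusted p = 0.28), Col6a2 at -0.29 (SE 0.12, adjusted p = 0.079), Col6a3 at -0.26 (SE 0.14, adjusted p = 0.19) and Col4a5 at -0.73 (SE 0.27, adjusted p = 0.058). Col7a1 (-0.35), Col16a1 (-0.01) and Col5a3 (0.26) were not called either. On raw TPM Col4a5 was called lower (0.036), and with a pseudocount of 0.1 Col5a3 was called higher (0.007). Col9a3 differed by 0.45 (SE 0.16, adjusted p = 0.052) and was called higher on raw TPM (0.029), after quantile normalization (0.0087) and without ST replicate 2 (0.048) or RT replicate 2 (0.032). Of 27 genes for synthesis and assembly 10 were lower and 3 higher, of 12 basement membrane partners 8 were lower and 0 higher, and of 10 gonadal somatic markers 8 were lower and 1 higher, whose part was not tested. The shares over all genes were 24.1% lower and 10.4% higher. Itga1 fell by 1.36 (adjusted p = 0.00011) and Mmp14, a membrane-bound collagenase, by 1.45 (adjusted p = 6.5e-05).

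The difference between RT and ST also differed between the stages for some genes. The interaction was called for 16 of 32 genes, 8 in each direction, where 34.5% of all genes were called, 22% lower and the rest higher. On raw TPM it was 15 higher and 3 lower (42.2% of all genes called, 34.6% higher and 7.65% lower), with the median of all genes at 0.37 against -0.18. It was 2.40 (SE 0.16, adjusted p = 6.2e-06) for Col6a2, 2.22 (SE 0.12, adjusted p = 1.5e-06) for Col6a1 and 2.11 (SE 0.20, adjusted p = 4e-05) for Col6a3, whose RT minus ST differences were -2.69, -2.52 and -2.37 in embryoid bodies and between -0.29 and -0.26 in meiocyte-like cells. Col1a1 had 0.03 (SE 0.13, adjusted p = 0.87), and 0.77 (adjusted p = 0.00092) on raw TPM. Raw TPM also brought calls for Col5a1 (0.86, adjusted p = 0.00026), Col4a2 (1.29, 0.00087), Col16a1 (1.20, 0.0066), Col7a1 (0.80, 0.012) and Col27a1 (0.67, 0.034), of which Col5a1 (0.018) and Col4a2 (0.015) were called after quantile normalization too.

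RT-1dMeioLC and LT-1dMeioLC differed in few collagen genes. Of 32 tested 1 was called higher and 2 lower, where 16.5% of all genes were called, 5.75% higher and 10.8% lower; on raw TPM 2 were higher and 1 lower (18.6% of all genes called, 6.2% higher and 12.4% lower). Col6a1 rose by 0.50 (SE 0.08, adjusted p = 0.0036) and Col4a1 fell by 0.58 (SE 0.08, adjusted p = 0.0012). Col18a1, at -0.18 (SE 0.05, adjusted p = 0.045), lost its call when 1 library, whichever of the 4, was left out (0.064 to 0.22), on raw TPM (0.094), after quantile normalization (0.22), without the filter (0.057) and with the replicate number as a block (0.052). For Col1a1 the difference was -0.02 (SE 0.09, adjusted p = 0.99), for Col3a1 -0.22 (SE 0.09, adjusted p = 0.14) and for Col5a2 0.08 (SE 0.14, adjusted p = 0.78). Col1a2 (-0.21, SE 0.07, adjusted p = 0.064) was called lower when both RT-1dEB libraries were left out of the fit (0.036), Col6a2 (0.32, SE 0.12, adjusted p = 0.09) was called higher on raw TPM (0.046) and Col5a1 (0.24, SE 0.09, adjusted p = 0.081) after quantile normalization (0.021). Differences of the other 10 named genes ran from -0.67 for Col9a2 to 0.37 for Col6a3, and none was called. A p above the threshold with 2 libraries a group does not show that levels were equal.

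Culture of PGCs with gonadal somatic cells and retinoic acid was compared with the PGCs they came from, PGC-1dMeioLC against E10.5PGC. The groups also differ in the sort, by CD61 and SSEA1 for E10.5PGC and by the absence of GFP alone for PGC-1dMeioLC. Culture and sort cannot be told apart. Nearly every collagen gene tested was higher in PGC-1dMeioLC: 27 of 32 were called higher and 2 lower, where 53.9% of all genes were called, 38.9% higher and 15% lower. The median was 1.51 against 0.28 over all genes. Col6a1 changed most, by 6.00 (SE 0.08, adjusted p = 1.5e-11), followed by Col1a1 with 5.70 (SE 0.09, adjusted p = 3.7e-11), Col1a2 with 5.08, Col3a1 with 5.01 and Col6a2 with 4.82. Further fibrillar and type VI chains rose by 3.41 for Col5a2, 2.94 for Col5a1 and 2.85 for Col6a3. The network chains rose by 3.28 for Col4a2, 2.93 for Col4a5 and 2.85 for Col4a1. Smaller increases were 2.26 for Col26a1, 2.06 for Col16a1, 1.49 for Col9a2 and 1.33 for Col9a3, and 0.86 for Col7a1 and 0.47 for Col18a1. Col5a3 differed by -0.36 (SE 0.18, adjusted p = 0.12) and was called lower after quantile normalization (-1.02, adjusted p = 0.0014). The call of Col9a2 was lost after quantile normalization (0.097).

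Col27a1 was called at 0.81 (adjusted p = 0.0075), which was lost without E10.5PGC replicate 2 (0.052), without PGC-1dMeioLC replicate 1 (0.071) and after quantile normalization (0.4). Among the lower genes Col12a1 rose by 1.93, Col4a6 by 1.67 and Col14a1 by 1.52. Col14a1 passed the filter only through PGC-1dMeioLC, and Col9a1, which follows, only through E10.5PGC. The 2 genes that fell, Col2a1 and Col9a1, were cartilage chains named after their values were seen. Col2a1 went from 1.65 and 1.56 scaled TPM to 0.137 and 0.274 (-1.11, SE 0.19, adjusted p = 0.00052). Col9a1 went from 2.92 and 2.78 to 1.58 and 0.749 (-0.86, SE 0.23, adjusted p = 0.0099). Other chains of cartilage, Col9a2, Col9a3 and Col27a1, were called higher. The Col9a1 call was lost without E10.5PGC replicate 1 (0.052), without PGC-1dMeioLC replicate 2 (0.087) and with a pseudocount of 0.1 (0.16).

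In the same comparison 22 of 27 genes for synthesis and assembly were higher and 2 lower, with Loxl1, a crosslinking enzyme, at 3.85 (SE 0.13, adjusted p = 3e-09). Of 7 receptors 5 were higher, of 6 degrading enzymes 4 were higher and of 12 basement membrane partners 10 were higher, with 0, 0 and 1 lower. Gonadal somatic markers were higher for 9 of 10 and fibroblast and stroma markers for 8 of 12, the latter from a sum of 118 and 120.4 to 520.2 and 515 scaled TPM. Of 7 germ cell markers 4 were lower and 2 higher, with sums of 6025 and 6021 before and 1828 and 1865 after. Of all genes 38.9% were called higher and 15% lower in this comparison. The part of other cell types in the collagen result was not tested.

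Meiocyte-like cells from stem cells were set against those from PGCs, LT-1dMeioLC against PGC-1dMeioLC. Of 32 genes 8 were called lower and 2 higher, where 22.1% of all genes were called, 13.8% lower and 8.32% higher; the count of 10 fell to 6 without LT-1dMeioLC replicate 2 and to 6 without PGC-1dMeioLC replicate 1. Col1a1 was called lower at -0.81 (SE 0.09, adjusted p = 0.00025), Col5a1 at -0.66 (SE 0.09, adjusted p = 0.00062) and Col6a1 at -0.53 (SE 0.08, adjusted p = 0.0018). Col6a2 was at -0.59 and lost its call with a pseudocount of 0.1 (0.096). Col4a1 was higher by 0.47 (SE 0.08, adjusted p = 0.0027) and Col18a1 by 0.35 (SE 0.05, adjusted p = 0.0016). Col3a1 (-0.01, SE 0.09, adjusted p = 1), Col5a2 (-0.04, SE 0.14, adjusted p = 0.91) and Col1a2 (-0.17, SE 0.07, adjusted p = 0.11) were not called. Col4a2 (0.50, SE 0.17, adjusted p = 0.066) was called on raw TPM (0.015) and after quantile normalization (0.041).

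The other 4 calls were fragile, and Col14a1 and Col15a1 passed the filter only through PGC-1dMeioLC. Col9a3 (-0.66, adjusted p = 0.015) was lost without LT replicate 1 (0.075), LT replicate 2 (0.061) or PGC-1dMeioLC replicate 1 (0.088). Col15a1 (-0.97, 0.0086) was lost without LT replicate 2 (0.054) or PGC-1dMeioLC replicate 1 (0.055), and Col14a1 (-0.998, 0.03) without LT replicate 2 (0.19) or either PGC-1dMeioLC library (0.077 and 0.13) and with a pseudocount of 0.1 (0.11). Col4a6 (-0.70, 0.04) was lost when 1 library, whichever of the 4, was left out (0.051 to 0.23), after quantile normalization (0.052) and with a pseudocount of 0.1 (0.12). Differences of the other 8 named genes ran from -0.73 for Col16a1 to 0.08 for Col9a2 and were not called.

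Within each line, meiocyte-like cells were compared with embryoid bodies, stages that differ in days of induction, somatic partners, retinoic acid and the sort, which cannot be told apart. In LT 18 of 32 genes were higher and 6 lower (of all genes 65% were called, 27.6% as higher and 37.5% as lower), in ST 11 and 11 (63%, 25.5% and 37.5%) and in RT 15 and 13 (68.5%, 23.5% and 45.1%). On raw TPM the split was 21 and 6 in LT (64.5% of all genes called, 40.4% higher and 24% lower), 14 and 11 in ST (62.9%, 33.3% and 29.6%) and 20 and 8 in RT (65.7%, 43.7% and 22%). The median of all genes moved with the scaling, from -0.17 to 0.19 on raw TPM in LT, from -0.21 to 0 in ST and from -0.45 to 0.30 in RT.

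Col3a1 and Col26a1 were higher at the meiocyte stage in each line. Col3a1 rose by 6.02 (SE 0.09, adjusted p = 9.1e-12) in LT, 2.62 (SE 0.09, adjusted p = 2.9e-09) in ST and 3.29 (SE 0.09, adjusted p = 5.2e-10) in RT, and Col26a1 by 2.51, 3.21 and 2.56. Col4a5 was higher by 2.50 in LT, 1.97 in ST and 1.55 in RT, and Col4a1 by 2.81, 0.40 and 0.81. Col1a1 was higher by 4.52 (SE 0.09, adjusted p = 4.8e-11) in LT, and by 0.59 in ST and 0.62 in RT. Lower in each line were Col5a3, with -1.70 (SE 0.18, adjusted p = 9.9e-06) in LT, -5.85 (SE 0.18, adjusted p = 1e-09) in ST and -4.30 (SE 0.18, adjusted p = 7.3e-09) in RT, and Col7a1, with -1.55, -3.26 and -3.10. Col18a1 fell in each line, with differences of -0.97, -0.96 and -1.80, and so did Col27a1, with -1.05, -2.16 and -2.03. Col9a3 fell by 1.69 in LT, 0.95 in ST and 1.17 in RT, the last of which was not called on raw TPM (adjusted p = 0.45).

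Other chains went different ways in the 3 lines, a difference that the interactions above test for ST against LT and for RT against ST. Col6a1 was at 3.14 in LT and 2.05 in RT, both called, and at -0.18 (SE 0.08, adjusted p = 0.09) in ST. Col6a2 was called in each line, at 2.56, -0.61 and 1.80 in the order LT, ST and RT. Col6a3 was at 0.77 in LT and -2.51 in ST, both called. In RT it was at -0.40 (SE 0.14, adjusted p = 0.026), a call that was lost without RT-1dEB replicate 2 (0.15), without RT-1dMeioLC replicate 2 (0.21) and with a pseudocount of 0.1 (0.054), and that turned to 0.54 (0.0036) on raw TPM and 0.18 (0.32) after quantile normalization. Col5a1 was at 1.15, -0.88 and -0.66, each called, but the RT value turned to 0.34 (0.0044) on raw TPM and was not called after quantile normalization (0.22).

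Col5a2 was at 1.91 in LT and -0.65 in ST, where quantile normalization ended the call (0.053), and at 0.34 (SE 0.14, adjusted p = 0.047) in RT, where leaving out any 1 of the 4 libraries did (0.066 to 0.2), as did a pseudocount of 0.1 (0.23) and testing without the filter (0.062). Col1a2 was at 3.15, -0.17 and 0.54, of which the ST value was not called (adjusted p = 0.053, and 0.025 when both RT-1dEB libraries were left out of the fit). Col4a2 was at 2.86, 0.04 and 0.69, with no call in ST (adjusted p = 0.88) except on raw TPM (0.38, 0.05 after rounding). Col16a1 was at -0.21 in LT, which was not called, and at -2.81 and -2.16 in ST and RT, which were. Col9a2 was at -0.14 (SE 0.32, adjusted p = 0.73) in LT and 0.80 (SE 0.32, adjusted p = 0.052) in ST, the latter called higher on raw TPM (0.011), after quantile normalization (0.015), with the replicate block (0.023) and without ST-1dMeioLC replicate 2 (0.018). In RT it was at -1.56 (SE 0.32, adjusted p = 0.0015), a call lost on raw TPM (0.14).

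Genes with lower levels added to this. Col8a1 fell by 2.50 in ST and 2.49 in RT, Col2a1 by 1.10 in LT and 1.30 in RT, and Col20a1 by 1.86 in RT. In LT Col23a1, a transmembrane collagen, rose by 1.65 and Col12a1 by 1.48, and in ST Col25a1 rose by 1.89 and Col4a6 by 1.65. Col25a1 passed the filter only through ST-1dMeioLC, and Col20a1 only through ST-1dEB and RT-1dEB. Genes for synthesis and assembly were lower at the meiocyte stage in 21 of 27 cases in ST (4 higher), 19 in RT (6 higher) and 10 in LT (12 higher). Of all genes 37.5% were called lower in ST, 45.1% in RT and 37.5% in LT, and 25.5%, 23.5% and 27.6% higher. Lox fell by 5.12 in ST and 2.65 in RT, and P4ha3 by 4.40 and 2.85. Degrading enzymes were lower for 4 of 6 in LT, 5 in ST and 3 in RT, with Mmp13, a collagenase, at -4.70, -5.81 and -3.93. Gonadal somatic markers were higher for 9 of 10 in LT, 8 in ST and 7 in RT, and fibroblast and stroma markers lower for 5, 11 and 8 of 12. The part of these markers in the collagen differences was not tested. The LT counts of lower genes for synthesis and assembly and of lower fibroblast and stroma markers lie near the share over all genes. So does the RT count of lower degrading enzymes.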

How the data were processed

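RNA-seq of mouse cells was used, with total RNA, a NEBNext Ultra library and TPM per gene that the authors deposited in 1 table. Per the submitters' processing notes the tools were RSEM, HISAT2, Bowtie2, DESeq2 and R 3.4.2 and the build mm10, with no roles named, and the strand setting is not stated. Of the series' 28 samples 16 were used, matched to groups by column name. The table's 12 further columns carry 6 names that each occur 2 times and were not used, and 6 PGCLC samples were not analysed here.

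TPM was rescaled so that nuclear protein-coding genes (GENCODE M21) sum to 1000000 per library, and log2(value + 1) was tested with limma 3.58.1 in R 4.3.3 on all 16 libraries with 1 mean per group (8 residual degrees of freedom, trended prior). Genes with at least 1 deposited TPM in 2 libraries were kept (21935), and p-values were Benjamini-Hochberg adjusted over all of them at a threshold of 0.05. The test was checked on simulated data. In 13 comparisons, genes named are collagens with a group mean of at least 10 scaled TPM, up to 3 other collagens with the largest called change per comparison, up to 3 genes per list, and, after their values were seen, members of counts of 5 or fewer. Quoted adjusted p-values are limma's. Collagen members and gene lists were chosen with earlier results of these data known. Alternatives were raw TPM, quantile normalization, a pseudocount of 0.1, no filter, a replicate block and leaving out single libraries. Gene coordinates are mm10 from GENCODE M21, and upstream sequences are RefSeq's on GRCm38.p6.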

Additional observations from a re-analysis of the deposited data

Results flagged for a closer look

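The ST minus LT difference of collagen genes differed between embryoid bodies and meiocyte-like cells for 22 of the 32 genes tested, by limma's interaction term (adjusted p under 0.05 over all genes), where 37.8% of all genes were called, 18.8% lower and 18.9% higher. Values are the difference at 1dMeioLC minus the difference at 1dEB on the log2(scaled TPM + 1) scale. The fibrillar chains had -4.15 for Col5a3, -3.93 for Col1a1, -3.40 for Col3a1 and -3.32 for Col1a2, then -2.56 for Col5a2, -2.03 for Col5a1 and -1.12 for Col27a1. The type VI chains had -3.32 for Col6a1, -3.28 for Col6a3 and -3.16 for Col6a2, and the network chains -2.82 for Col4a2 and -2.42 for Col4a1. Further negative values included -2.75 for Col8a1, -2.60 for Col16a1 and -1.71 for Col7a1. Positive values were 1.30 for Col13a1, 1.25 for Col25a1, 0.77 for Col2a1 and 0.74 for Col9a3. Col25a1 passed the filter only through ST-1dMeioLC, where it was high, and Col13a1 would not have passed it without that group. The Col7a1, Col27a1 and Col25a1 calls were lost with a pseudocount of 0.1 (adjusted p = 0.14, 0.17 and 0.14), and that of Col25a1 also without ST-1dMeioLC replicate 1 (0.05 after rounding). Col9a3 was lost without LT-1dEB replicate 2 (0.076), ST-1dEB replicate 1 (0.072), LT-1dMeioLC replicate 1 (0.07) or ST-1dMeioLC replicate 2 (0.081), and on raw TPM (0.12). Col2a1 was lost with the replicate block (0.054), on raw TPM (0.11) and without any of 6 single libraries, LT-1dEB replicate 2, either ST-1dEB library, either LT-1dMeioLC library or ST-1dMeioLC replicate 1 (0.061 to 0.13).

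The RT minus ST difference differed between the stages for 16 genes by the same test, 8 higher and 8 lower, where 34.5% of all genes were called, 22% lower. On raw TPM 15 were higher and 3 lower, with 42.2% of all genes called. The type VI chains had 2.40 for Col6a2, 2.22 for Col6a1 and 2.11 for Col6a3, and the fibrillar chains 1.55 for Col5a3, 0.99 for Col5a2, 0.71 for Col1a2 and 0.67 for Col3a1. Col4a1 had 0.41, which was lost without ST-1dMeioLC replicate 2 (adjusted p = 0.057). Negative values included -2.36 for Col9a2, -2.02 for Col13a1, -1.41 for Col25a1, -1.37 for Col20a1 and -0.84 for Col18a1. The limits on Col25a1 and Col13a1 from the filter hold here too, and Col20a1 passed it only through ST-1dEB and RT-1dEB. On raw TPM Col18a1 (0.5) and Col20a1 (0.066) were not called, and with a pseudocount of 0.1 Col25a1 (0.074) and Col20a1 (0.058) were not. Groups of 2 libraries are too small for a check of single outlying libraries.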

How the results depend on the processing

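Each comparison's total of collagen genes called, higher and lower together, stayed within 1.5 times its value under each of the following alternatives. They were raw TPM, quantile normalization, a pseudocount of 0.1, no filter on low genes and the replicate number as a block. For the comparisons it allows, leaving out both RT-1dEB libraries was a further one, chosen after seeing the data. The split by direction did move on raw TPM in every comparison whose raw TPM counts are given above. These include RT-1dEB against ST-1dEB, the stages in RT, RT-1dMeioLC against LT-1dMeioLC and the RT minus ST interaction. Leaving out 1 library at a time, with its lone partner assumed to vary like the other groups, gave 21 to 22 for ST-1dEB against LT-1dEB (23 with all libraries), 16 to 17 for RT-1dEB against ST-1dEB (19) and 19 to 21 for RT-1dEB against LT-1dEB (22). Among meiocyte-like cells it gave 10 to 12 for ST against LT (15), 7 to 10 for RT against ST (14) and 2 in every case for RT against LT (3). It gave 27 to 28 for PGC-1dMeioLC against E10.5PGC (29) and 6 to 8 for LT-1dMeioLC against PGC-1dMeioLC (10). Between stages it gave 23 to 24 in LT (24), 22 to 23 in ST (22) and 25 to 28 in RT (28), and for the interactions 18 to 22 (22, ST minus LT) and 14 to 17 (16, RT minus ST). A fit with fewer libraries has fewer residual degrees of freedom. Single genes reversed in 5 cases, with the cause not tested: Col18a1 on raw TPM in RT-1dEB against ST-1dEB (-0.55) and in the ST minus LT interaction (-0.28), Col5a1 on raw TPM between stages in RT (0.34), and Col6a3 there on raw TPM (0.54) and after quantile normalization (0.18). Whether libraries with the same replicate number shared a batch is not stated. Over 28 pairs of groups the differences between replicates 1 and 2 correlated at -0.034 to 0.043 across genes. That cannot exclude a batch that touched few genes or only some groups. With the number as a block the counts were 23, 19, 22, 15, 14, 2, 29, 10, 23, 23, 28, 21 and 15 in the order above. Read depth is unknown, so the precision of low values cannot be stated from counts.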
